A study of Mus musculus with 14 samples.

Results

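Whole lung lobes of a mouse carrying a mutation of Nkx2-1 and of a control mouse were compared by RNA-seq at postnatal day 14 (P14). The comparison holds 2 of the 14 libraries of the study, 1 mutant and 1 control, chosen by their labels. The mutant lung and its control come from a cross that the labels call Nkx2-1;Aqp5, and the labels give the genotype as mutant or control. The other libraries are alveolar type 1 (AT1) cells of the same cross, sorted at P5, with 3 mutant and 3 control libraries, and alveolar type 2 (AT2) cells of a second cross, Nkx2-1;Sftpc, at P8 to P9, again with 3 mutant and 3 control libraries. Neither the alleles nor the deleted part of the gene nor the driver of recombination is given in the sources used here, so what the control lung carries of them is not known either. Aqp5 and Sftpc are marker genes of AT1 and AT2 cells, and the Aqp5 gene is also active in some airway gland cells. Expression is given as FPKM, fragments scaled by transcript length and by the mapped fragments of the library. Loci were kept when they reached 5 FPKM in the higher of the 2 lung libraries, small RNA loci were left out, and each kept locus was described by the log2 ratio of (FPKM + 1), mutant over control. This rule kept 10522 of 23793 loci. With 1 library a side the lung values have no replicate check and no test. Genes were therefore also set beside the P5 AT1 cells of the same cross, which share no sample with the lungs and were tested with limma.

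NKX2-1 is a homeobox transcription factor that marks the lung epithelium from its first appearance in the embryo. In the mature alveolus it is present in AT1 cells, the flat cells through which gas is exchanged, and in AT2 cells, the cuboidal cells that make surfactant. Loss of NKX2-1 from lung epithelium or lung adenocarcinoma is known to be followed by expression of genes of the stomach and intestine. At P14 the mouse alveolus is still being divided by new walls, which need AT1 cells, capillary endothelium, fibroblasts and elastic fibres.

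Several properties of the 2 lung libraries bear on all values below. The mutant and the control mouse differed in their sex-linked transcripts: Xist, the RNA that silences an X chromosome in females, measured 0.0848 FPKM in mutant lung and 52.6 FPKM in control lung, while the Y-linked Eif2s3y measured 55.7 FPKM in mutant lung and 0.142 FPKM in control lung. The mice thus appear to be of different sex, and sex and genotype cannot be told apart in this comparison. Small RNA loci took 1.97% of all FPKM in mutant lung and 32.2% in control lung. At loci under 0.1 FPKM in both libraries the commonest ratio was 1.66, mutant over control, and 318 of 365 such loci lay within 0.02 log2 units of that ratio times a ratio of small whole numbers. A fragment was therefore worth 1.66 times more FPKM in the mutant library, whose low values rest on fewer fragments. Haemoglobin and other red cell transcripts summed to 895 FPKM in mutant lung and 3621 FPKM in control lung, and genes of heart and skeletal muscle summed to 325 FPKM in mutant lung and 146 FPKM in control lung. The part of these differences in the results below was not tested.

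Of the 10522 loci kept, 1355 (12.9%) were at least 2-fold higher in mutant lung and 1172 (11.1%) at least 2-fold lower. Counts of list members below are to be read beside these shares. The median log2 ratio over all kept loci was 0.09, with the middle 50% of loci between -0.43 and 0.57. The balance of the 2 directions depends on scaling: as deposited, 53.6% of the loci past 2-fold were higher in mutant lung. With both libraries rescaled to equal summed FPKM outside small RNA loci, the median shifted by -0.34, 908 loci were higher and 1874 lower, and the share higher was 32.6%. Rescaling by the median ratio gave 1156 higher and 1360 lower, a share of 45.9%. Of the 45 gene lists examined, the medians of 4 changed sign under rescaling (lung epithelial transcription factors, ciliated cells, the unfolded protein response and ion transport), and for these no direction is given.

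**Figure D1:**
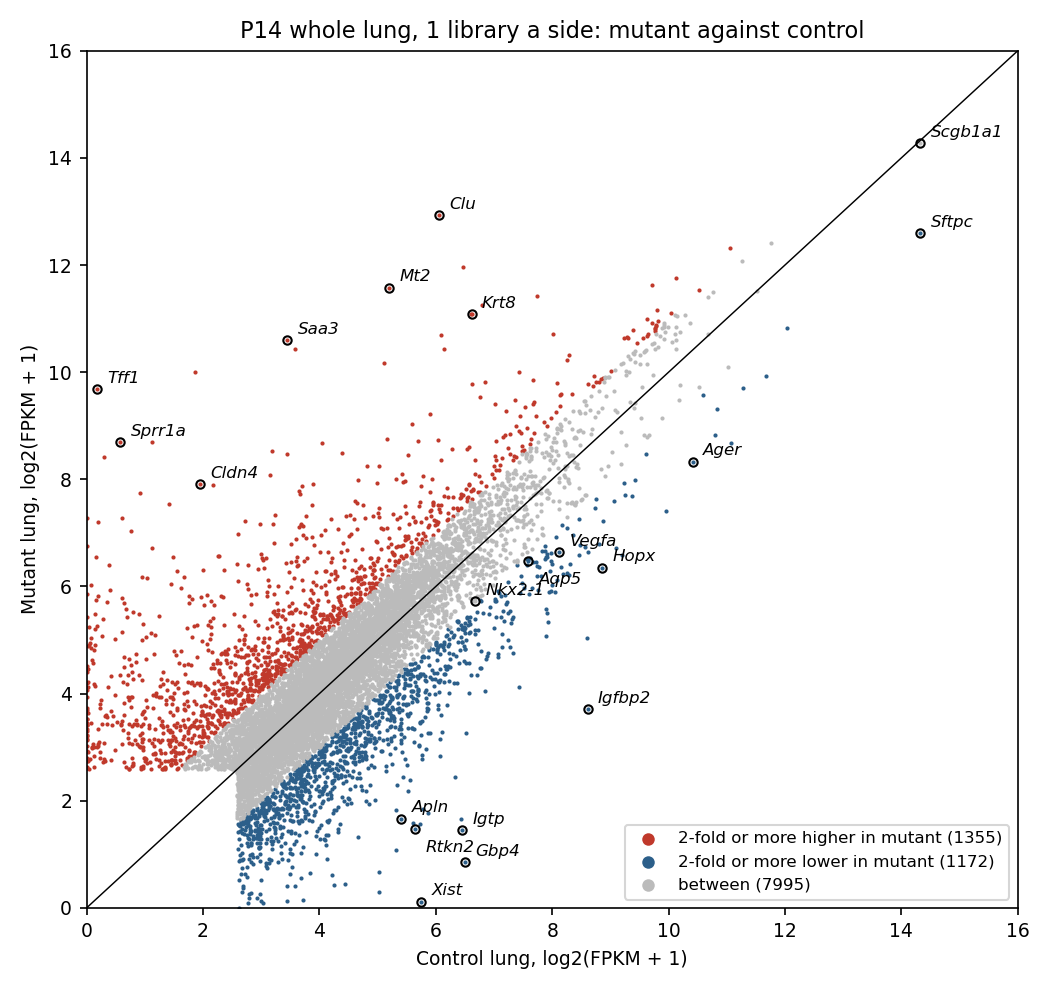
Each point is a locus that reached 5 FPKM in either library, with its log2(FPKM + 1) in mutant lung (vertical axis) against control lung (horizontal axis), and the diagonal marks equal values. Red points are the 1355 loci at least 2-fold higher in mutant lung and blue points the 1172 at least 2-fold lower. Tff1, Sprr1a, Clu, Saa3 and Mt2 lie far above the diagonal, Gbp4, Igtp, Igfbp2 and Rtkn2 far below it, and Scgb1a1 on it.

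The gene named in the cross was lower in mutant lung. Nkx2-1 (chr12:56531958-56536908, minus strand, GRCm38) measured 52.1 FPKM in mutant lung and 101 FPKM in control lung, a log2 ratio of -0.94. In P5 AT1 cells it measured 22.8, 55.8 and 68.2 FPKM in mutant libraries A to C, against 262, 281 and 239.8 FPKM in control libraries A to C, so the groups did not overlap (log2 change -2.53 ± 0.36 SE, n = 3 each, limma adjusted p = 0.00639). Aqp5, which encodes the apical water channel of AT1 cells (chr15:99590782-99594829, plus strand), measured 88.2 FPKM in mutant lung and 191 FPKM in control lung. In AT1 cells Aqp5 fell as well, to 146, 212 and 129 FPKM in mutants against 462, 459 and 430.2 FPKM in controls (log2 change -1.50 ± 0.20 SE, n = 3 each, limma adjusted p = 0.00583). FPKM of a gene also counts the parts of its transcript that a deletion leaves, and in whole lung AT2 and airway cells also express Nkx2-1.

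Genes of AT1 cells were lower in mutant lung almost throughout. Of 34 AT1 cell genes, all kept, 20 were at least 2-fold lower and 1 higher, with a median log2 ratio of -1.31, where 11.1% of all kept loci were lower. In whole lung fewer cells of a type and less RNA per cell cannot be told apart, here and for every cell type below. Ager, which encodes a receptor on the basal side of AT1 cells, measured 321 FPKM in mutant lung and 1362 FPKM in control lung. Hopx, a homeodomain cofactor of AT1 cells, measured 80.6 FPKM in mutant lung and 463 FPKM in control lung. Both fell in AT1 cells at P5, Ager by 2.56 and Hopx by 2.68 on the log2 scale (limma adjusted p = 0.00697 and 0.00252). Rtkn2 had the lowest ratio of any AT1 gene after Igfbp2, with 1.77 FPKM in mutant lung and 49.2 FPKM in control lung. At P5 Rtkn2 measured 4.10, 28.0 and 21.4 FPKM in mutant AT1 cells, against 194, 258 and 243 FPKM in control AT1 cells, and the groups did not overlap (log2 change -3.96 ± 0.57 SE, n = 3 each, limma adjusted p = 0.00685). Of the 34 genes, 23 fell and 0 rose in P5 AT1 cells, where 6.22% of all genes tested fell and 11.6% rose; without mutant A 14 of them fell.

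Igfbp2, which encodes a secreted binding protein of insulin-like growth factors and is known as a marker of terminally differentiated AT1 cells, did not follow that pattern. In the lung it measured 12.1 FPKM in the mutant and 389 FPKM in the control, a log2 ratio of -4.89 and the lowest of the AT1 list. In AT1 cells at P5 it measured 585, 1624 and 981 FPKM in mutants, against 314, 732 and 1154 FPKM in controls. These groups overlapped, and the change did not pass the test (log2 change 0.60 ± 0.52 SE, n = 3 each, limma adjusted p = 0.441). The lung and the AT1 libraries differ in age and in the cells they hold, and the difference between them was not tested. Other AT1 genes near parity in the lung had fallen in AT1 cells: Cldn18, a tight junction claudin shared with the stomach, measured 261 FPKM in mutant lung and 296 FPKM in control lung, with an AT1 log2 change of -1.67 (limma adjusted p = 0.00421). Gprc5a, an orphan receptor, measured 259 FPKM in mutant lung and 275 FPKM in control lung, with an AT1 log2 change of -1.33 (limma adjusted p = 0.0148, and 0.0504 without mutant A). Krt7, a simple epithelial keratin, was the member higher in mutant lung (716 FPKM in mutant lung and 162 FPKM in control lung).

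Other members of the list have roles in signalling, ion transport and matrix. Akap5, a kinase anchor, measured 6.10 FPKM in mutant lung and 66.6 FPKM in control lung. The sodium channel subunit gene Scnn1g measured 5.86 FPKM in mutant lung and 53.0 FPKM in control lung, and its partner Scnn1b 7.93 FPKM in mutant lung and 28.1 FPKM in control lung. The alpha subunit gene of the same channel, Scnn1a, was not lower in the lung (142 FPKM in mutant lung and 88.9 FPKM in control lung), although it fell in AT1 cells (log2 change -1.90, limma adjusted p = 0.0303, and up to 0.108 with mutant A, B or C left out, each of which ended the call). Collagen IV chains of the alveolar basement membrane differed among themselves. Col4a3 measured 3.90 FPKM in mutant lung and 39.5 FPKM in control lung, and Col4a4 3.05 FPKM in mutant lung and 30.2 FPKM in control lung. The widely expressed chain Col4a1 stood at 264 FPKM in mutant lung and 481 FPKM in control lung, which is under 2-fold.

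Genes of AT2 cells were lower as well, although the cross is named for Aqp5, a gene of AT1 cells. Of 28 kept AT2 cell genes, 15 were at least 2-fold lower and 3 higher in mutant lung (median log2 ratio -1.23), where 11.1% of all kept loci were lower and 12.9% higher. Sftpc, surfactant protein C, measured 6174 FPKM in mutant lung and 20482 FPKM in control lung, a log2 ratio of -1.73. Sftpb, the surfactant protein needed for lamellar bodies, measured 632 FPKM in mutant lung and 1817 FPKM in control lung. Lamp3, a lamellar body membrane protein gene, measured 24.1 FPKM in mutant lung and 115 FPKM in control lung, and Etv5, the ETS factor of AT2 cells, 9.16 FPKM in mutant lung and 40.5 FPKM in control lung. The collectin gene Sftpd stood against these, with 755 FPKM in mutant lung and 484 FPKM in control lung. Muc1, a membrane mucin of many epithelia, measured 899.8 FPKM in mutant lung and 114 FPKM in control lung, and the cysteine protease gene Ctsh 539 FPKM in mutant lung and 230.1 FPKM in control lung. Of the enzymes of surfactant lipid synthesis 2 of 21 were at least 2-fold lower and 2 higher, near the 11.1% and 12.9% of all kept loci (4 lower and 1 higher after rescaling to equal totals). Their median log2 ratio was -0.15. Lpcat1, which remodels phosphatidylcholine, was 1 of the 2 lower, at 22.8 FPKM in mutant lung and 90.9 FPKM in control lung.

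In contrast, genes shared by simple epithelia were higher in mutant lung. All 14 pan-epithelial genes were at least 2-fold higher (median log2 ratio 2.87, where 12.9% of all kept loci were higher), and 11 of them rose in P5 AT1 cells while 1 fell. Without mutant A 4 of them rose. The keratin gene Krt8 measured 2176 FPKM in mutant lung and 96.9 FPKM in control lung, and Krt19 2438 FPKM in mutant lung and 110.5 FPKM in control lung. Epcam, an adhesion protein of all simple epithelia, measured 302 FPKM in mutant lung and 31.5 FPKM in control lung. Elf3, an epithelial ETS factor, measured 367 FPKM in mutant lung and 8.14 FPKM in control lung. Cldn4, a tight junction claudin of injured alveoli, had the highest ratio of these, with 239 FPKM in mutant lung and 2.84 FPKM in control lung.

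The alveolar transitional genes, known from the intermediate state through which AT2 cells pass after injury on their way to AT1 cells, share Krt8, Krt18, Krt19 and Cldn4 with that list. Of 20 genes, 15 were at least 2-fold higher and 1 lower in mutant lung (median log2 ratio 2.57). Clu, clusterin, a secreted chaperone, was the most abundant of them, with 7803 FPKM in mutant lung and 65.6 FPKM in control lung. At P5 Clu measured 6959.8, 1438 and 1948 FPKM in mutant AT1 cells, against 73.5, 34.9 and 32.6 FPKM in control AT1 cells (log2 change 5.91 ± 0.58 SE, n = 3 each, limma adjusted p = 0.00236). Sprr1a, a cornified envelope protein of squamous epithelia, measured 414 FPKM in mutant lung and 0.492 FPKM in control lung. In AT1 cells Sprr1a measured 1843, 780.4 and 996 FPKM in mutants, against 2.77, 0.568 and 0.844 FPKM in controls, the groups standing apart in every library (log2 change 8.99 ± 0.40 SE, n = 3 each, limma adjusted p = 7.46e-05). Areg, the growth factor amphiregulin, measured 77.4 FPKM in mutant lung and 1.92 FPKM in control lung. It did not pass the test in AT1 cells (log2 change 0.63, limma adjusted p = 0.355, and 0.0565 with the library letters as a block). Ctgf, a matricellular protein and YAP target, was the member lower in the mutant (80.8 FPKM in mutant lung and 217 FPKM in control lung).

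Many of the highest ratios in the lung belonged to genes of the stomach and intestine. Tff1, a trefoil peptide of gastric surface mucous cells (chr17:31161395-31165277, minus strand), measured 817 FPKM in mutant lung and 0.125 FPKM in control lung, the highest ratio of all kept loci (log2 9.51). Tff2, the trefoil peptide of gastric neck and gland mucous cells, measured 1373 FPKM in mutant lung and 10.9 FPKM in control lung. Of 27 gastric genes matched, 16 reached 5 FPKM in either lung, and 14 of these were at least 2-fold higher and 1, Aqp5, lower in the mutant. Genes near 0 in control lung pass this filter only where the mutant is high, so the median over all matched genes (2.83) is the better description of the list. Dpcr1, a mucin-like gene, measured 414 FPKM in mutant lung and 1.18 FPKM in control lung. Psca, the prostate stem cell antigen, also a gastric pit cell protein, measured 154 FPKM in mutant lung and was listed at 0 in control lung. Ctse, the aspartic protease cathepsin E, measured 129 FPKM in mutant lung and 0.699 FPKM in control lung, and Anxa10, an annexin of gastric epithelium, 64.6 FPKM in mutant lung and 0.0471 FPKM in control lung. Pgc, pepsinogen C, which AT2 cells also make, measured 304 FPKM in mutant lung and 27.2 FPKM in control lung. The genes of acid secretion and gastric hormones stayed near 0 in both lungs: the proton pump gene Atp4b measured 0.0544 FPKM in mutant lung and was listed at 0 in control lung, and Gast and Sst were listed at 0 in both.

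Among intestinal genes, 12 of 27 reached 5 FPKM, with 11 at least 2-fold higher and 1 lower in mutant lung, the fatty acid binding protein gene Fabp1, which is also an alveolar macrophage gene. The median over all matched genes was 1.00. Hnf4a, the nuclear receptor that drives endodermal gene programmes outside the lung, measured 36.8 FPKM in mutant lung and 0.0271 FPKM in control lung, and rose in AT1 cells (log2 change 3.04, limma adjusted p = 0.00803). Cdx1 and Cdx2, the homeobox factors of the intestine, were listed at 0 in both lungs. Apoa1, the main protein of high-density lipoprotein, measured 146 FPKM in mutant lung and 0.140 FPKM in control lung. Agr2, a disulfide isomerase needed for mucin folding, measured 154 FPKM in mutant lung and 0.518 FPKM in control lung. Outside the list, Rbp2, the retinol-binding protein of enterocytes, measured 339 FPKM in mutant lung and 0.229 FPKM in control lung. Spink4, a protease inhibitor of intestinal goblet cells, measured 1022 FPKM in mutant lung and 2.62 FPKM in control lung. The intestinal mucin Muc2 was near 0 in both, at 0.115 FPKM in mutant lung and 0.104 FPKM in control lung.

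The digestive genes with the highest lung ratios did not all rise in AT1 cells at P5. Tff1 measured 23.1, 3.06 and 3.78 FPKM in mutant AT1 cells and was listed at 0 in all 3 controls (limma adjusted p = 0.0178). Tff2 measured 55.7, 17.5 and 21.9 FPKM in mutant AT1 cells, against 0.732, 0.112 and 0 FPKM in control AT1 cells (log2 change 4.54 ± 0.42 SE, n = 3 each, limma adjusted p = 0.00193). The groups did not overlap for either gene, and mutant A was the highest library for both. Spink4 measured 6.47, 0.432 and 0.345 FPKM in mutant AT1 cells, against 3.48, 1.06 and 2.00 FPKM in control AT1 cells, overlapping groups that did not pass the test (log2 change -0.31 ± 0.64 SE, n = 3 each, limma adjusted p = 0.751). Agr2 did not pass either (log2 change 1.43, limma adjusted p = 0.168, and 0.0634 with the library letters as a block). Apoa1 and Rbp2 were too low in AT1 cells to be tested, with at most 5.57 and 3.94 FPKM, both in mutant A. Dpcr1 passed the test with all libraries (log2 change 3.56, limma adjusted p = 0.0285), but its adjusted p ran from 0.0122 to 0.0835 as each library was left out, past 0.05 without mutant A, mutant B, control B or control C. Psca, listed at 0 in all 3 AT1 controls, passed with all libraries (limma adjusted p = 0.0299) and missed 0.05 without control B (0.0502) or control C (0.0655). A gene was tested when at least 3 libraries reached 1 FPKM. Tff1, Tff2 and Psca met this filter through the mutants alone, the group where they are high. With a mutant library left out they were not tested.

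Of the 15 highest loci, 3 belong to none of the gene groups described here. Sult1c2, a sulfotransferase gene, measured 107 FPKM in mutant lung and was listed at 0 in control lung, and the locus shared by AA467197 and the microRNA gene Mir147 measured 213 FPKM in mutant lung and 0.896 FPKM in control lung. Syt8, a member of the synaptotagmin family of membrane trafficking proteins, measured 92.4 FPKM in mutant lung and 0.120 FPKM in control lung. It rose in AT1 cells too, with 44.3, 9.41 and 12.5 FPKM in mutants, against 0, 0.129 and 0.375 FPKM in controls (log2 change 4.002 ± 0.50 SE, n = 3 each, limma adjusted p = 0.00454). Syt8 also met the filter for testing through the mutants alone.

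Airway genes did not move as a block. Scgb1a1, the club cell secretoglobin, measured 19852 FPKM in mutant lung and 20542 FPKM in control lung, and Scgb3a2, another secretoglobin, 847 FPKM in mutant lung and 741 FPKM in control lung, so the levels of these defining club cell genes were nearly equal. Cyp2f2, a club cell cytochrome, was lower, at 176 FPKM in mutant lung and 425 FPKM in control lung. The secretory genes of mucous and defensive airway cells were higher: Pigr, the receptor that carries immunoglobulin A across epithelia, measured 186 FPKM in mutant lung and 1.66 FPKM in control lung. Muc5b, a gel-forming airway mucin, measured 70.2 FPKM in mutant lung and 1.05 FPKM in control lung, and Scgb3a1 432 FPKM in mutant lung and 34.9 FPKM in control lung. In all, 9 of 16 kept club and airway secretory genes were at least 2-fold higher and 1 lower. Foxj1, the master factor of ciliated cells, measured 18.5 FPKM in mutant lung and 14.8 FPKM in control lung. Basal cell genes were near 0 in both lungs, with Krt5 at 0.0622 FPKM in mutant lung and 0.0187 FPKM in control lung. Calca, the neuropeptide gene of pulmonary neuroendocrine cells, measured 19.1 FPKM in mutant lung and 0.331 FPKM in control lung. Of 14 basal and neuroendocrine genes matched 2 were kept, Calca and 1 member with a log2 ratio of -0.41. The median log2 ratio over all 14 was 0.07.

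The lung epithelial transcription factors divided: of 22 kept, 7 were at least 2-fold higher and 3 lower in mutant lung, and 11 had a ratio above 0 and 11 below it. After rescaling to equal totals 5 were higher and 7 lower. Sox9, a factor of embryonic distal tips, measured 8.65 FPKM in mutant lung and 0.627 FPKM in control lung. Klf5 measured 192 FPKM in mutant lung and 23.4 FPKM in control lung, and Foxa1, a forkhead factor that works with NKX2-1, 58.1 FPKM in mutant lung and 13.8 FPKM in control lung. Its relative Foxa2 stood at 16.6 FPKM in mutant lung and 20.4 FPKM in control lung. In AT1 cells Sox9 and Foxa1 rose (log2 changes 0.97 and 0.82, limma adjusted p = 0.0265 and 0.0141; Sox9 missed 0.05 without mutant A, B or C, at up to 0.101, and Foxa1 without mutant A, at 0.0604), and Foxa2 did not pass the test (log2 change -0.50, limma adjusted p = 0.0900).

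**Figure D2:**
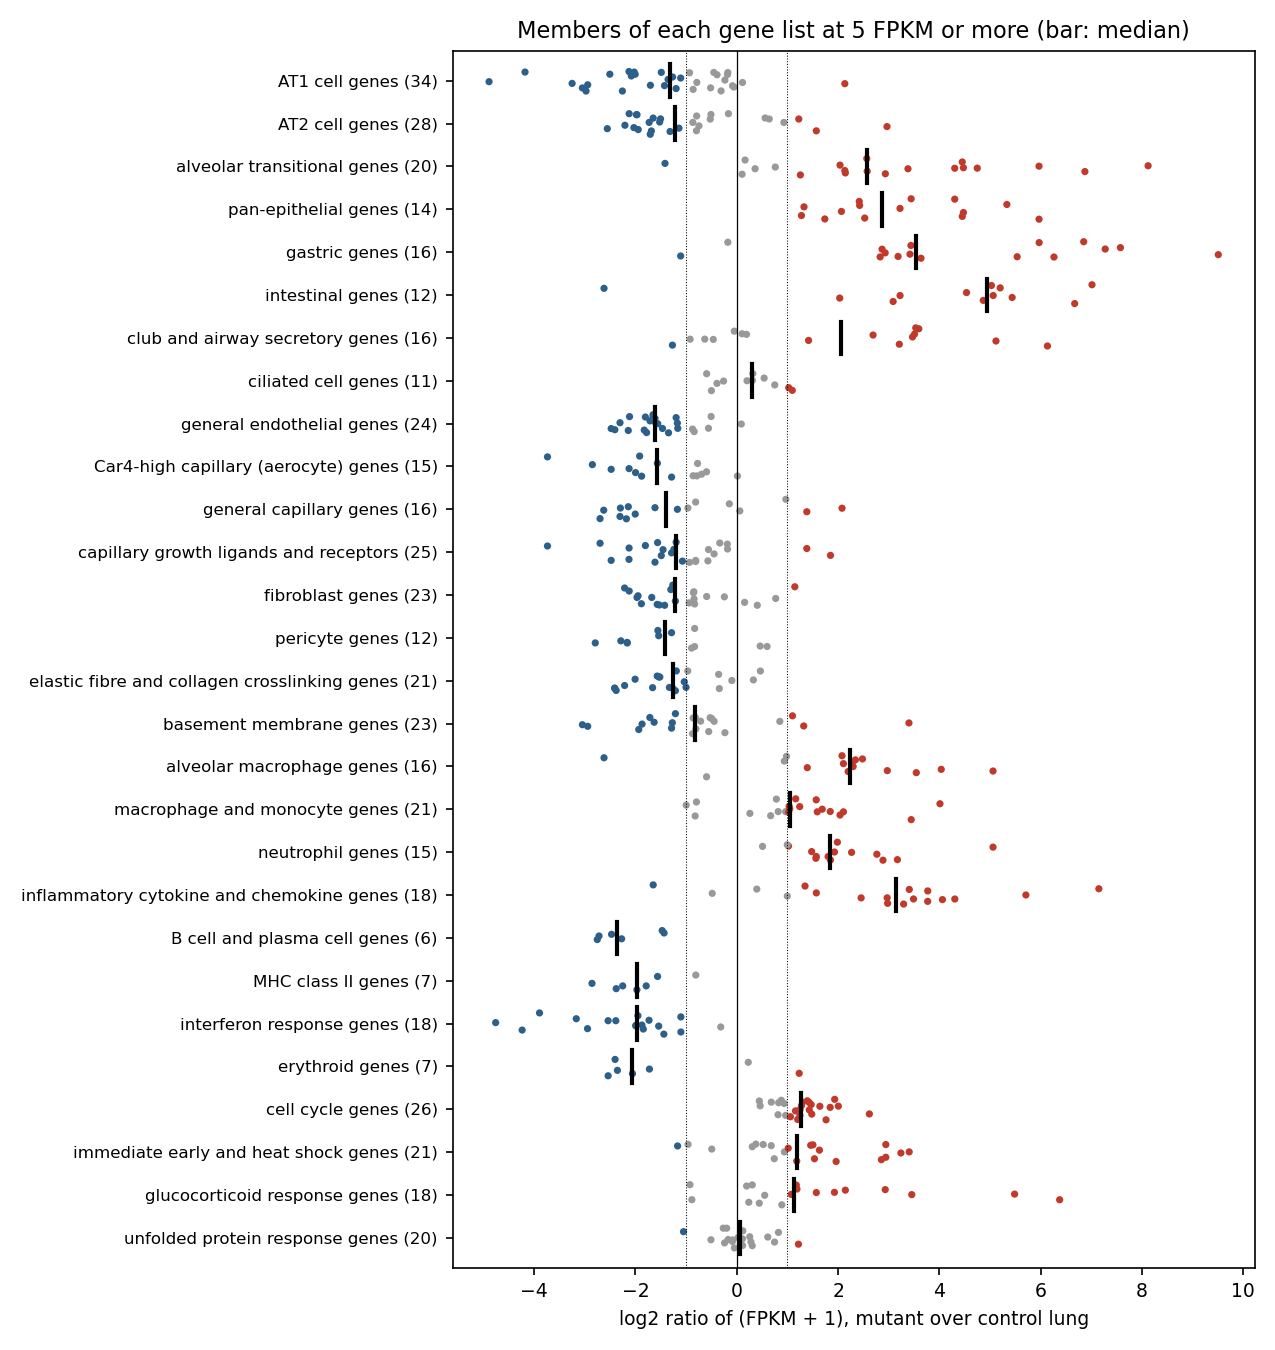
Each row is a gene list and each point a member that reached 5 FPKM in either library, placed by its log2 ratio of (FPKM + 1), mutant over control lung. Black bars are list medians, the dotted lines mark 2-fold, red and blue points lie past it, and the number of members is in brackets. Lists of digestive, epithelial, transitional, macrophage, neutrophil and inflammatory genes lie right of 0, while alveolar, endothelial, stromal, lymphoid and interferon response lists lie left of it.

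The other tissues of the alveolar wall were lower in mutant lung than in control lung. Of 24 general endothelial genes, 19 were at least 2-fold lower and 0 higher (median log2 ratio -1.61), where 11.1% of all kept loci were lower and 12.9% higher. Pecam1, an adhesion molecule of all endothelium, measured 92.8 FPKM in mutant lung and 238 FPKM in control lung. Cdh5, the endothelial cadherin, measured 81.5 FPKM in mutant lung and 282 FPKM in control lung. Plvap, a protein of endothelial fenestrae and a marker of general capillary cells, measured 47.0 FPKM in mutant lung and 236 FPKM in control lung. Vwf, carried mainly by larger vessels, was near parity at 31.5 FPKM in mutant lung and 29.5 FPKM in control lung.

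The lung capillary bed has a Car4-high cell type, also called the aerocyte, that faces AT1 cells, and a general capillary cell that serves as its progenitor. Of 15 aerocyte genes kept, 9 were at least 2-fold lower and 0 higher, and of 16 general capillary genes 9 were lower and 2 higher. The ligand apelin and its receptor, which divide between these cells, were both low in the mutant. Apln measured 2.17 FPKM in mutant lung and 41.3 FPKM in control lung, the lowest ratio of the vascular lists (log2 -3.74), and its receptor Aplnr 7.10 FPKM in mutant lung and 51.6 FPKM in control lung. Car4 itself, a carbonic anhydrase, stood at 68.6 FPKM in mutant lung and 104 FPKM in control lung, less than 2-fold apart. Lpl, lipoprotein lipase, which alveolar macrophages also express, was higher, at 162 FPKM in mutant lung and 37.6 FPKM in control lung.

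Of the growth signals between epithelium and capillary, Vegfa, the endothelial growth factor that AT1 cells supply, measured 98.4 FPKM in mutant lung and 278 FPKM in control lung. Vegfa fell in AT1 cells at P5 (log2 change -1.82 ± 0.41 SE, n = 3 each, limma adjusted p = 0.0247, and 0.0652 without control C). Its main receptor gene Kdr measured 11.2 FPKM in mutant lung and 66.9 FPKM in control lung, and the decoy receptor gene Flt1 18.1 FPKM in mutant lung and 27.1 FPKM in control lung. Among the class 3 semaphorins, guidance ligands of vessels and axons, Sema3a measured 2.67 FPKM in mutant lung and 15.03 FPKM in control lung. Edn1, the vasoconstrictor endothelin, was higher, at 55.4 FPKM in mutant lung and 20.6 FPKM in control lung, and rose in AT1 cells (log2 change 0.90, limma adjusted p = 0.0261, a call lost without mutant A, B or C, at up to 0.0982), while its receptor gene Ednrb stood at 7.29 FPKM in mutant lung and 35.2 FPKM in control lung. In all, 14 of 25 ligands and receptors were at least 2-fold lower and 2 higher.

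Stromal genes were lower as well. Fibroblast genes were at least 2-fold lower in 12 of 23 cases and higher in 1, and pericyte genes in 7 of 12 cases with 0 higher. Tcf21, the transcription factor of alveolar lipofibroblasts, measured 64.5 FPKM in mutant lung and 255 FPKM in control lung. Aspn, an extracellular proteoglycan of myofibroblasts, measured 39.3 FPKM in mutant lung and 242 FPKM in control lung, and Fgf18, a growth factor of the same cells, 2.99 FPKM in mutant lung and 20.5 FPKM in control lung. Smooth muscle actin, Acta2, differed less, with 67.0 FPKM in mutant lung and 94.5 FPKM in control lung. The platelet-derived growth factor receptor gene Pdgfra, which marks alveolar fibroblasts and myofibroblasts and whose locus also holds Mir7025, was near parity at 58.4 FPKM in mutant lung and 52.4 FPKM in control lung.

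Elastic fibres, which are laid down in the new alveolar walls, were lower in their components. Of 21 genes of elastic fibres and collagen crosslinking, 15 were at least 2-fold lower and 0 higher (median log2 ratio -1.27). Elastin itself, Eln, measured 1805 FPKM in mutant lung and 4178 FPKM in control lung. Fbln5, a fibulin needed to assemble elastin, measured 12.7 FPKM in mutant lung and 72.0 FPKM in control lung, and fell in AT1 cells too (log2 change -1.83, limma adjusted p = 0.00264). In all, 4 of the 24 genes tested fell in AT1 cells, where 6.22% of all genes tested fell. With mutant A, mutant B, mutant C or control B left out, 1 of them fell. Of 25 fibroblast genes 24 also passed the filter for testing in the AT1 libraries, and which cells these AT1 values come from was not tested. The crosslinking enzyme gene Lox was not lower (85.3 FPKM in mutant lung and 67.8 FPKM in control lung). In the basement membrane list, 9 of 23 genes were at least 2-fold lower and 3 higher, where 11.1% of all kept loci were lower and 12.9% higher. After rescaling to equal totals 14 were lower and 1 higher. The highest was Itgb4, the hemidesmosome integrin, with 38.1 FPKM in mutant lung and 2.70 FPKM in control lung, which also rose in AT1 cells (log2 change 2.59 ± 0.34 SE, n = 3 each, limma adjusted p = 0.00508).

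**Figure D3:**
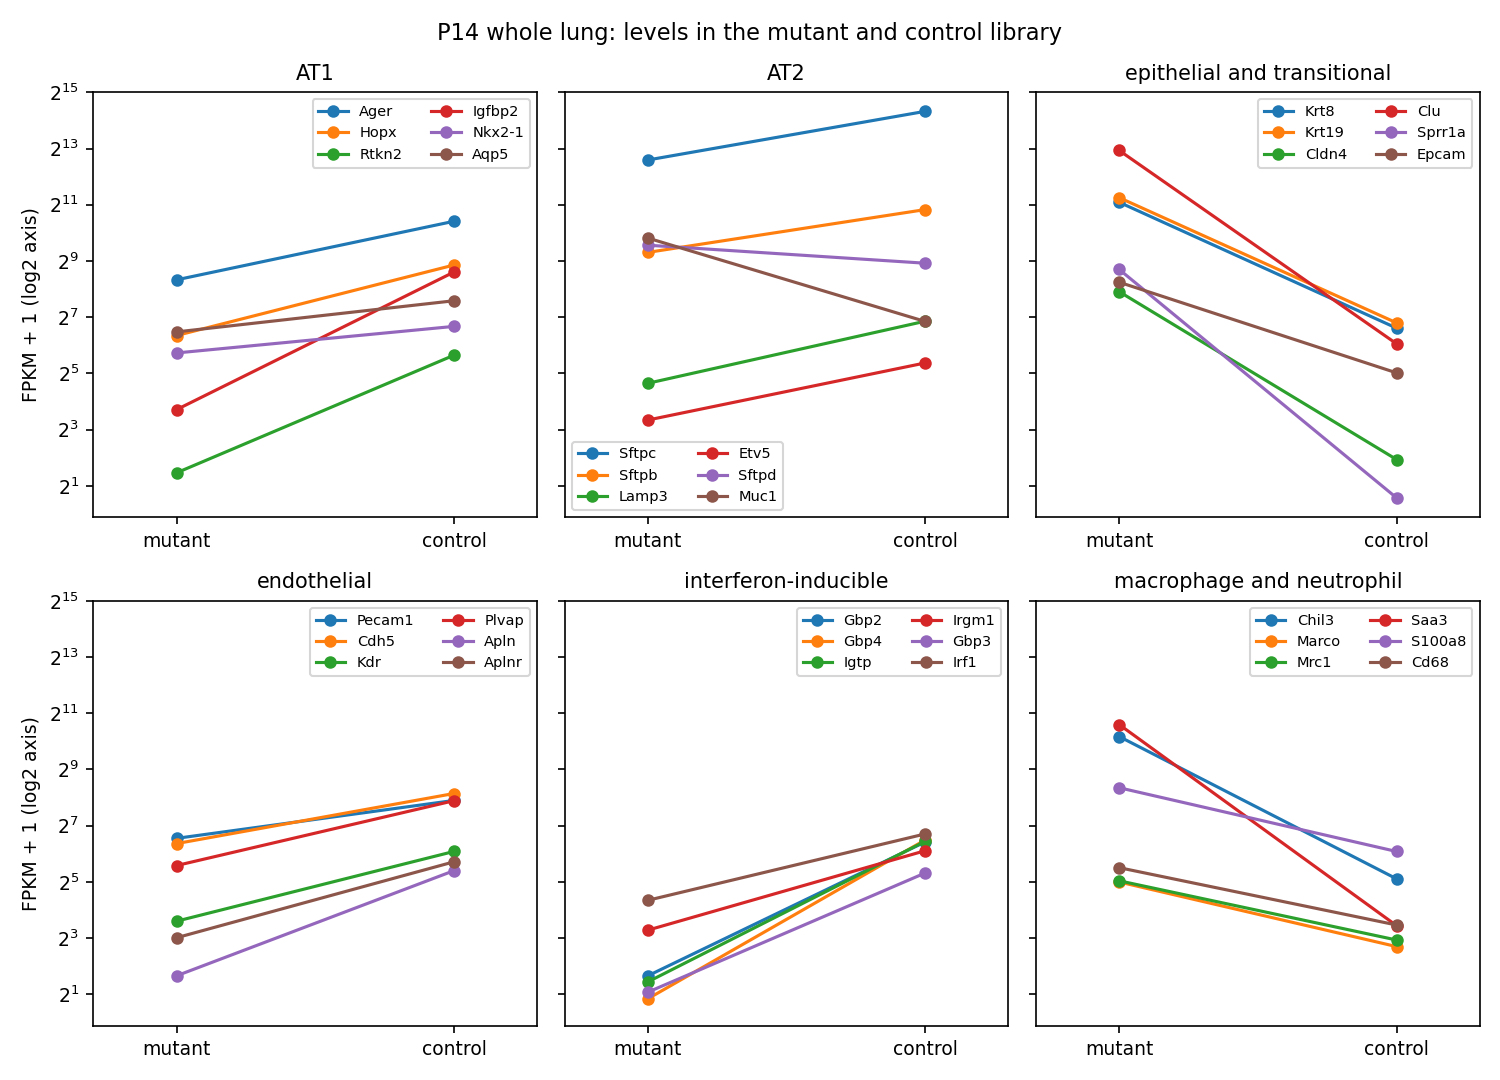
FPKM + 1 in the mutant (left) and control (right) lung library for 6 genes in each of 6 groups, on a log2 axis; a line joins the 2 values of a gene. Lines of AT1, endothelial and interferon-inducible genes are lower in the mutant than in the control, those of epithelial, transitional, macrophage, neutrophil and inflammatory (Saa3) genes higher, and AT2 genes divide, with Sftpd and Muc1 higher in mutant lung.

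Genes of macrophages and neutrophils were higher in mutant lung, while those of B cells were lower. Of 16 alveolar macrophage genes kept, 12 were at least 2-fold higher in mutant lung and 1 lower, and of 15 neutrophil genes kept 13 were higher and 0 lower. The medians over all matched genes of these lists, 20 and 21, were 2.09 and 1.56. Chil3 had the highest ratio (log2 5.06) of both lists and of the alternative activation list below, so these lists are not independent. Chil3, a chitinase-like protein of alternatively activated and alveolar macrophages, measured 1152 FPKM in mutant lung and 33.6 FPKM in control lung. Marco, a scavenger receptor of alveolar macrophages, measured 31.0 FPKM in mutant lung and 5.51 FPKM in control lung. Mrc1, the mannose receptor, measured 31.9 FPKM in mutant lung and 6.66 FPKM in control lung. S100a8, a calcium-binding protein of neutrophils, measured 326 FPKM in mutant lung and 66.8 FPKM in control lung. Dendritic, mast and basophil genes did not share that direction: of 20 matched 6 were kept, 1 at least 2-fold higher and 4 lower, and the median over all matched was -0.32. General macrophage and monocyte genes had a median log2 ratio of 1.05, against 2.24 for alveolar macrophage genes. Of 21 kept, 18 had a ratio above 0 and 3 below it. Some members were less than 2-fold apart. Csf1r, the receptor for macrophage colony-stimulating factor and 1 of the 3 below 0, stood at 13.2 FPKM in mutant lung and 24.1 FPKM in control lung. Tyrobp stood at 94.4 FPKM in mutant lung and 59.0 FPKM in control lung. Of the 21 macrophage and monocyte genes, 13 were at least 2-fold higher and 0 lower as deposited, and 7 higher and 4 lower after rescaling to equal totals. The sorted AT1 cells did not show these increases: Chil3, Marco and S100a8 had AT1 log2 changes of -2.80, -1.53 and -1.03 (limma adjusted p = 0.0924, 0.0448 and 0.0142). The call for Marco was lost without mutant A, mutant B, control A or control C (at up to 0.112) and that for S100a8 without mutant A (0.0565). The AT1 libraries also held transcripts of other cell types. All 24 general endothelial genes and 19 of 21 neutrophil genes matched passed the filter for testing there. Which cells the AT1 values of leukocyte genes come from was not tested.

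Secreted inflammatory genes were among the strongest differences. Saa3, the serum amyloid A made locally in inflamed tissue (chr7:46711998-46715700, minus strand), measured 1547 FPKM in mutant lung and 9.91 FPKM in control lung. In AT1 cells Saa3 was low in all libraries, with 1.01, 0.517 and 0.197 FPKM in mutants, against 5.53, 2.01 and 0.501 FPKM in controls, and did not pass the test (log2 change -1.00 ± 0.49 SE, n = 3 each, limma adjusted p = 0.182, 0.0526 with the library letters as a block, and 0.0462 without control C). Spp1, osteopontin, measured 235 FPKM in mutant lung and 3.52 FPKM in control lung, and unlike Saa3 it rose in AT1 cells (log2 change 3.34, limma adjusted p = 0.0134). The neutrophil chemokine genes Cxcl1 and Cxcl2 measured 19.3 and 15.7 FPKM in mutant lung, against 0.489 FPKM and a listed 0 in control lung. Cxcl13, a B cell chemokine, measured 77.8 FPKM in mutant lung and 2.99 FPKM in control lung, although B cell genes were lower there. Of 32 cytokine and chemokine genes, 18 were kept, 14 of them at least 2-fold higher and 1 lower, and the median over all 32 was 1.49. Genes of alternative activation and type 2 immunity were at least 2-fold higher in 11 of 12 kept members, of 22 matched, and the median over all matched was 1.63, with Arg1, arginase, at 9.82 FPKM in mutant lung and 0.813 FPKM in control lung. Their cytokines were at or near 0: Il4 was listed at 0 in both lungs, and Il13 measured 0.0608 FPKM in mutant lung and was listed at 0 in control lung.

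B cell genes were lower: all 6 kept members were at least 2-fold lower, and the median over the 18 matched was -1.44. Cd79a, part of the B cell receptor, measured 1.58 FPKM in mutant lung and 16.4 FPKM in control lung. T cell and NK cell genes were low in both lungs, with 2 of 24 kept; Cd3g, a chain of the T cell receptor complex, measured 0.814 FPKM in mutant lung and 4.73 FPKM in control lung. Class II antigen presentation was lower too, at least 2-fold in 6 of 7 kept genes. Ciita, the factor that switches these genes on, measured 0.548 FPKM in mutant lung and 10.2 FPKM in control lung, and H2-Aa 30.9 FPKM in mutant lung and 151 FPKM in control lung. These lists were lower together with the red cell genes given above.

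The lowest ratios in the lung belonged to interferon-inducible GTPases, which defend cells against intracellular pathogens and are known to respond strongly to interferon gamma. Of the 15 lowest, 10 were such genes. Xist, the sex-linked RNA given above and not a GTPase gene, was also among the 15. Gbp4, a guanylate-binding protein (chr5:105115767-105139586, minus strand), had the lowest ratio of all kept loci, with 0.802 FPKM in mutant lung and 89.3 FPKM in control lung (log2 -5.65). Igtp, an immunity-related GTPase (chr11:58199556-58207591, plus strand), measured 1.73 FPKM in mutant lung and 86.3 FPKM in control lung. Gbp2 (chr3:142620602-142638008, plus strand) measured 2.17 FPKM in mutant lung and 85.0 FPKM in control lung. The family was collected by name after its values were seen: of 19 loci, 14 were kept, with log2 ratios from -5.65 to -2.54. Of these 13 measured under 5 FPKM in mutant lung, all but Irgm1, and so passed that filter through control lung alone. The median log2 ratio over all 19 loci was -3.89. Their summed level was 30.4 FPKM in mutant lung and 747 FPKM in control lung. Members of this family resemble each other closely, and the annotated spans of Igtp and Irgm2 overlap, so the split of fragments among them is uncertain.

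RefSeq promoter windows of GRCm38.p6, from 250 bases before to 50 bases after a start, show what these genes share in sequence. The letters of the interferon-stimulated response element, GAAA, any 2 bases and GAAA again, stood on either strand in 9 of the 12 windows of the 11 GTPase genes that have any, against 3.44% of all 32851 windows. The gamma-activated sequence, TTCNNNGAA, which reads the same on both strands, stood in 6 of these 12 windows, against 8.30% of all windows. Both motifs were chosen with the values known, and a match of letters is not a binding site. The 4 windows shown carry these letters in capitals, on the strand of the gene, from 5′ to 3′, and in them the matches do not overlap. They are Gbp2 at chr3:142620413-142620712 (plus strand), Gbp7 at chr3:142530086-142530385 (plus strand), Igtp at chr11:58199306-58199605 (plus strand) and Tgtp2 at chr11:49064163-49064462 (minus strand). In Igtp and Tgtp2 the gamma-activated sequence ends 2 bases before the response element, while the Gbp2 window holds the response element without the other motif.
Gbp2: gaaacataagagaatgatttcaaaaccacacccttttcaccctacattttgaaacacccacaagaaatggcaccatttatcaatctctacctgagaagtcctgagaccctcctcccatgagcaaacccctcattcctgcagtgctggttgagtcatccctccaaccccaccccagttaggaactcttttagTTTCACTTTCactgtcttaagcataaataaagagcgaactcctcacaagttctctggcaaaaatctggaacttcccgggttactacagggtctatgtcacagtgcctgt
Gbp7: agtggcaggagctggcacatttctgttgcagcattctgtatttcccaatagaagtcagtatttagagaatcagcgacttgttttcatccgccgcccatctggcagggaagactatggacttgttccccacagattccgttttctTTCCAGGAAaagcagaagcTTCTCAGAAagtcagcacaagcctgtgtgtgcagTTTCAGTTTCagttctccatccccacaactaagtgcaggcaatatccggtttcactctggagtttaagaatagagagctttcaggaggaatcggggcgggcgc
Igtp: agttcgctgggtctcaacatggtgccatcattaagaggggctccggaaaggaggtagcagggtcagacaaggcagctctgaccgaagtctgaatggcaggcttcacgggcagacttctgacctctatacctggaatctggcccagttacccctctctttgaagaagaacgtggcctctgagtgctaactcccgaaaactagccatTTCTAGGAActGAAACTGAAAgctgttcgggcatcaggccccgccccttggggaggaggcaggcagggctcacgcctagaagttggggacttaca
Tgtp2: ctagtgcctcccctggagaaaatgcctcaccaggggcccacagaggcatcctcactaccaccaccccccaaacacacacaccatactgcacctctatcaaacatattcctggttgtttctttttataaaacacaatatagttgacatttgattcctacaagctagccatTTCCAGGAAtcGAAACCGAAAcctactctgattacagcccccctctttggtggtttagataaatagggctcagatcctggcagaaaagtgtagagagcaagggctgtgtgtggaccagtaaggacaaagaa

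The wider interferon response was lower as well. Of 18 interferon response genes kept, 17 were at least 2-fold lower and 0 higher in mutant lung, Gbp2, Gbp3 and Iigp1 among them. Irf1, a transcription factor induced by interferon gamma, measured 19.4 FPKM in mutant lung and 104 FPKM in control lung. Nlrc5, the activator of class I antigen presentation, measured 0.0925 FPKM in mutant lung and 9.91 FPKM in control lung, and the peptide transporter gene Tap1 6.23 FPKM in mutant lung and 53.3 FPKM in control lung. The class I heavy chain gene H2-K1 stood near parity at 185 FPKM in mutant lung and 224 FPKM in control lung. The cytokine gene Ifng was at or near 0 in both lungs (0 FPKM in mutant lung and 0.110 FPKM in control lung), and so was the interferon gamma target Cxcl9 (0.0230 FPKM in mutant lung and 0.0830 FPKM in control lung). Ifng, Irf1, Nlrc5, Tap1 and H2-K1 were chosen after their values were seen. Tnfsf10, the death ligand TRAIL and also interferon-inducible, was among the 15 lowest with 2.00 FPKM in mutant lung and 47.8 FPKM in control lung.

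In AT1 cells at P5 the GTPases were low in both groups. Gbp4 measured 0.838, 1.79 and 1.20 FPKM in mutant AT1 cells, against 1.11, 1.93 and 1.22 FPKM in control AT1 cells. Igtp measured 2.12, 3.62 and 2.06 FPKM in mutant AT1 cells, against 2.07, 4.72 and 4.59 FPKM in control AT1 cells. The groups overlapped for both genes (log2 changes -0.09 ± 0.23 and -0.38 ± 0.29 SE, n = 3 each, limma adjusted p = 0.796 and 0.378). Igtp at 86.3 FPKM in control lung was above every AT1 library, and the AT1 libraries are younger and hold other cells. Of 10 family members tested in AT1 cells, 1 rose, Irgm1 (log2 change 0.73, limma adjusted p = 0.0224, a call lost at up to 0.0728 without mutant A, B or C or control C), and 0 fell, where 11.6% of all genes tested rose and 6.22% fell. Of the 19 interferon response genes tested in AT1 cells, 0 rose, 17 did not pass and 2 fell, where 6.22% of all genes tested fell. Those that fell were Ifit2 and Ifit3 (log2 changes -1.39 and -2.08, limma adjusted p = 0.0104 and 0.000949). Slc7a10, an amino acid transporter gene and the remaining member of the 15 lowest, measured 0.353 FPKM in mutant lung and 20.8 FPKM in control lung. It fell in AT1 cells (log2 change -1.33 ± 0.28 SE, n = 3 each, limma adjusted p = 0.0188), a call lost without mutant A (0.0796) or mutant B (0.0593).

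**Figure D4:**
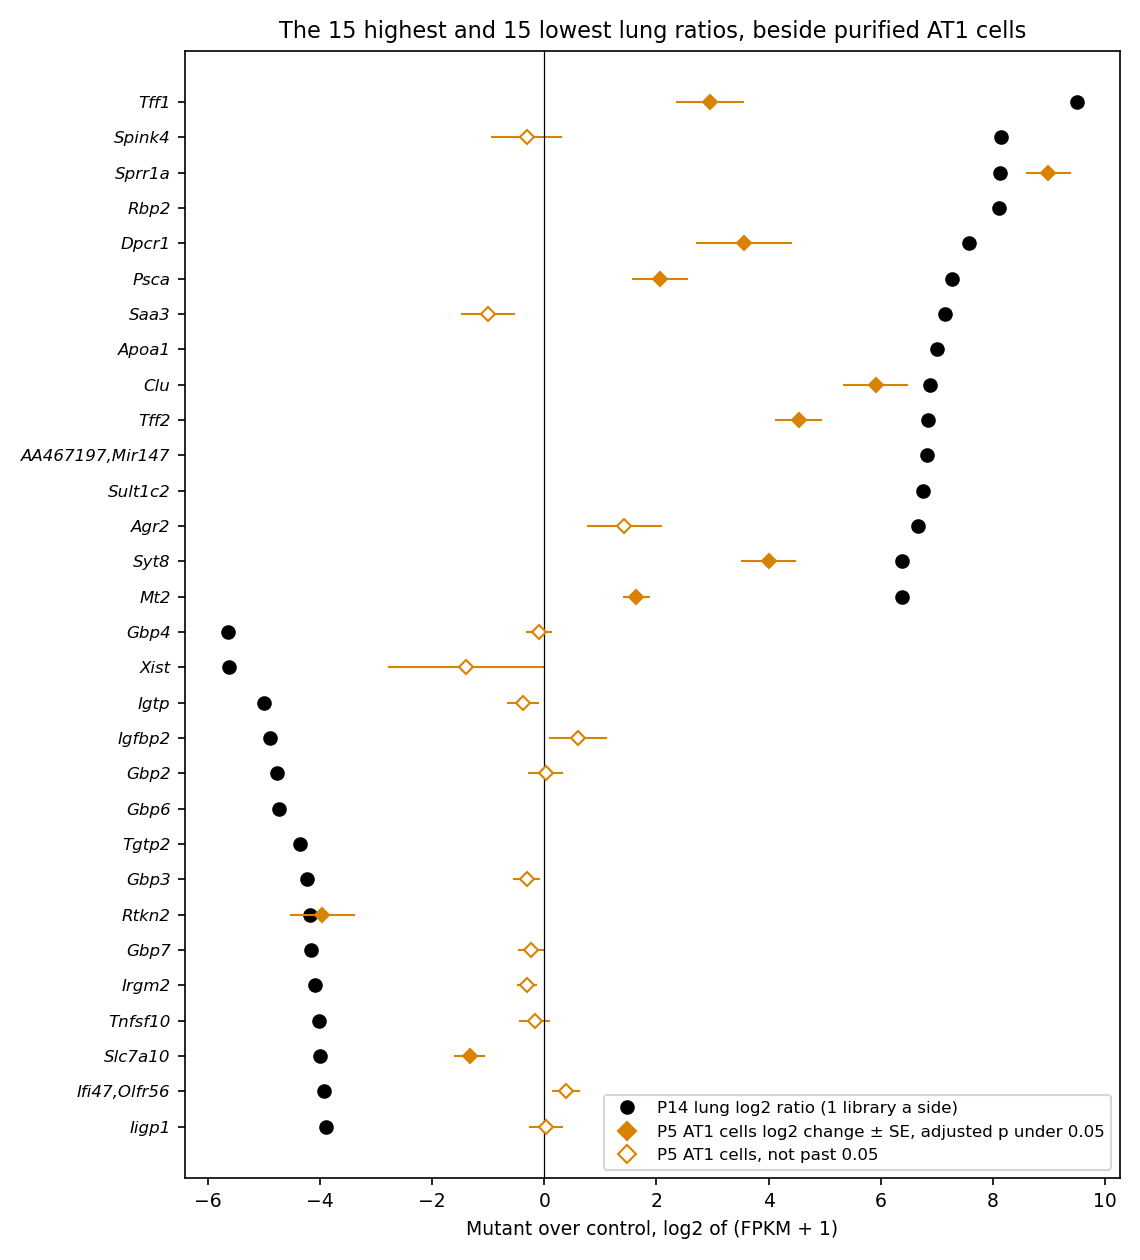
The 15 loci with the highest and the 15 with the lowest lung ratio, from top to bottom, with the lung log2 ratio as black circles and the log2 change in P5 AT1 cells as orange diamonds with its SE (n = 3 each). Filled diamonds passed an adjusted p of 0.05, open ones did not, and genes without a diamond were too low in AT1 cells to be tested. Sprr1a, Clu and Rtkn2 lie close together in lung and AT1 cells, while the GTPase genes sit far left of 0 in lung and, where they were tested, near 0 in AT1 cells.

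Metallothioneins, small proteins that bind zinc and copper and respond to metals, glucocorticoids and inflammation, were among the most abundant transcripts of mutant lung. Mt1 measured 3975 FPKM in mutant lung and 87.8 FPKM in control lung, and Mt2 (chr8:94172664-94173568, plus strand) 3055 FPKM in mutant lung and 35.8 FPKM in control lung. Mt2 rose in AT1 cells by less, with 258, 198 and 174 FPKM in mutants, against 91.5, 50.6 and 61.3 FPKM in controls, groups that did not overlap (log2 change 1.64 ± 0.24 SE, n = 3 each, limma adjusted p = 0.00761). The core of the metal response element, TGCACNC or TGCGCNC on either strand, stood 3 times in the RefSeq window of Mt1 and 4 times in that of Mt2. Of all windows 25.7% hold it at least 1 time. So do 4 of 11 windows of the 15 highest loci, 4 of 14 of the 15 lowest and 16 of 36 of AT1 cell genes. This motif too was chosen with the values known, and a match of letters is not a binding site. The windows shown are Mt1 at chr8:94178839-94179138 and Mt2 at chr8:94172368-94172667, both on the plus strand of GRCm38.p6, with the letters of the element in capitals.
Mt1: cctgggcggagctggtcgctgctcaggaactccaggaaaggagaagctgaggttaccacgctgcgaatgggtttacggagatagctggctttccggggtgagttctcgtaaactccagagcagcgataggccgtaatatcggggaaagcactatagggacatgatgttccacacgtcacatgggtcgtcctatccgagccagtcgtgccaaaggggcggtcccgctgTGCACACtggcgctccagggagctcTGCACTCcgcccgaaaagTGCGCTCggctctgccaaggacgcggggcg
Mt2: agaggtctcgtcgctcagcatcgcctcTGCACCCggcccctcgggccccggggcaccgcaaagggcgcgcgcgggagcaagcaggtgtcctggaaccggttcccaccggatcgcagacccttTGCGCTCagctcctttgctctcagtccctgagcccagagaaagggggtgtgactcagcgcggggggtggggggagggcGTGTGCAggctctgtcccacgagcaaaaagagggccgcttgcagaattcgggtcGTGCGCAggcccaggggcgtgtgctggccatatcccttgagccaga

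The metallothioneins also belong to the glucocorticoid response list, of which 10 of 18 genes were at least 2-fold higher and 0 lower in mutant lung (7 higher and 2 lower after rescaling to equal totals). Fkbp5, a chaperone of the glucocorticoid receptor and its classical target, measured 124 FPKM in mutant lung and 15.3 FPKM in control lung. Tsc22d3, the glucocorticoid-induced leucine zipper, lay the other way at 197 FPKM in mutant lung and 366 FPKM in control lung. Immediate early genes, which respond within minutes to handling and stress, were listed together with heat shock genes. Of 21 kept members of that list 12 were at least 2-fold higher and 1 lower, where 12.9% of all kept loci were higher and 11.1% lower. After rescaling to equal totals 9 were higher and 2 lower. Fos measured 124 FPKM in mutant lung and 12.2 FPKM in control lung, and Atf3 37.1 FPKM in mutant lung and 2.60 FPKM in control lung. In AT1 cells 0 of the 24 members tested rose and 2 fell, where 11.6% of all genes tested rose and 6.22% fell. With any library but mutant B left out, 1 member fell. Targets of the unfolded protein response did not separate the lungs, with 1 of 20 past 2-fold higher and 1 lower, and Hspa5, its main chaperone, at 215 FPKM in mutant lung and 211 FPKM in control lung.

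Cell division genes were higher in mutant lung without exception among those kept: all 26 had a ratio above 0, 18 of them at least 2-fold (median log2 ratio 1.26). Rescaled to equal totals, 12 were at least 2-fold higher. Mki67, the proliferation antigen Ki-67, measured 13.8 FPKM in mutant lung and 4.48 FPKM in control lung, and Plk1, a mitotic kinase, 26.3 FPKM in mutant lung and 3.44 FPKM in control lung. All 32 genes of the list rose in AT1 cells at P5, where 11.6% of all genes tested did, and with the library letters as a block 32 rose. That count rests on the mutant libraries: 3 rose without mutant A, 15 without mutant B and 13 without mutant C, against 29 to 31 with a control library left out. Glycolytic genes were higher too, for example Gapdh at 697 FPKM in mutant lung and 206 FPKM in control lung, and 11 of 23 genes of hypoxia and glycolysis were at least 2-fold higher, with 2 lower, Vegfa among the lower. Ribosomal protein genes, collected after their values were seen, had a ratio above 0 in 79 of 81 loci, where 54.9% of all kept loci had, with a median of 0.94 log2 units beside the shift of -0.34 that rescaling to equal totals gives. Detoxifying enzymes collected in the same way were at least 2-fold higher in 18 of 34 loci and lower in 2, where 12.9% of all kept loci were higher and 11.1% lower.

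Ion transport genes moved in both directions. Besides the sodium channel subunits given above, the sodium pump subunit gene Atp1b1 measured 919 FPKM in mutant lung and 202 FPKM in control lung. Aqp3, a water and glycerol channel of airway and gut epithelia, measured 54.4 FPKM in mutant lung and 0.523 FPKM in control lung, the reverse of Aqp5. Kcnq1, a potassium channel gene of secretory epithelia including the stomach, measured 82.7 FPKM in mutant lung and 11.3 FPKM in control lung and rose in AT1 cells (log2 change 2.23, limma adjusted p = 0.00463).

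Some lists held few changes or mixed ones, beside the 12.9% of all kept loci at least 2-fold higher and the 11.1% lower. Of 17 targets of YAP and TAZ, the effectors of the Hippo pathway, 5 were at least 2-fold lower and 2 higher, with Amotl2, a junction protein that binds YAP, at 12.2 FPKM in mutant lung and 56.3 FPKM in control lung. Clock genes, whose level depends on the hour of collection, were at least 2-fold higher in 3 and lower in 4 of 16 kept members, and the core clock gene Arntl measured 8.70 FPKM in mutant lung and 9.29 FPKM in control lung. Mesothelial genes divided: Upk3b, a uroplakin of the pleura, measured 2.86 FPKM in mutant lung and 22.3 FPKM in control lung, while mesothelin, Msln, also made by some epithelia, measured 872 FPKM in mutant lung and 97.9 FPKM in control lung and rose in AT1 cells (log2 change 1.88, limma adjusted p = 0.0474), a call that 5 of the 6 AT1 libraries each ended when left out, all but control A (adjusted p up to 0.159). Lyve1, a receptor of lymphatic vessels and some macrophages, measured 25.6 FPKM in mutant lung and 134 FPKM in control lung. Of 16 smooth muscle and myofibroblast genes 5 were at least 2-fold lower and 0 higher, and after rescaling to equal totals 11 were lower.

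In AT1 mutant B, as in the mutant lung, Xist was low (0.0623 FPKM) and Eif2s3y high (25.5 FPKM), while Xist measured 19.8 to 64.9 FPKM in the other AT1 libraries. In AT2 cells Xist was low in control A, control C and mutant C (1.04, 1.35 and 0.423 FPKM). It measured 34.4 to 57.0 FPKM in the other AT2 libraries. Apparent sex was thus unevenly split between mutant and control in both cell types, with mutant B the only AT1 library of its kind. Its part in the AT1 and AT2 results was not tested. Across all loci, lung and the AT1 cells of the same cross shared many directions. In the P5 AT1 comparison, 1462 of 12612 genes tested rose (11.6%) and 785 fell (6.22%); with the library letters as a block, because same-lettered libraries deviated together, 1907 rose and 1359 fell. These counts depend on single libraries: 278 rose and 195 fell without mutant A, 689 and 377 without mutant B, 625 and 494 without mutant C, and 907 and 438 without control C. Of the loci at least 2-fold higher in mutant lung, 1224 were tested in AT1 cells, where 472 (38.6%) rose and 25 fell. Of those lower in mutant lung, 1125 were tested, of which 220 (19.6%) fell and 13 rose. Over all 10310 kept loci tested, 11.8% rose and 6.67% fell. Seen from the AT1 side, the genes that rose had a median lung log2 ratio of 0.80 and those that fell -0.57, against 0.09 over all tested. The larger part of the lung differences, 727 of the higher and 892 of the lower loci tested, did not pass the test in AT1 cells, which does not show that they were equal there.

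**Figure D5:**
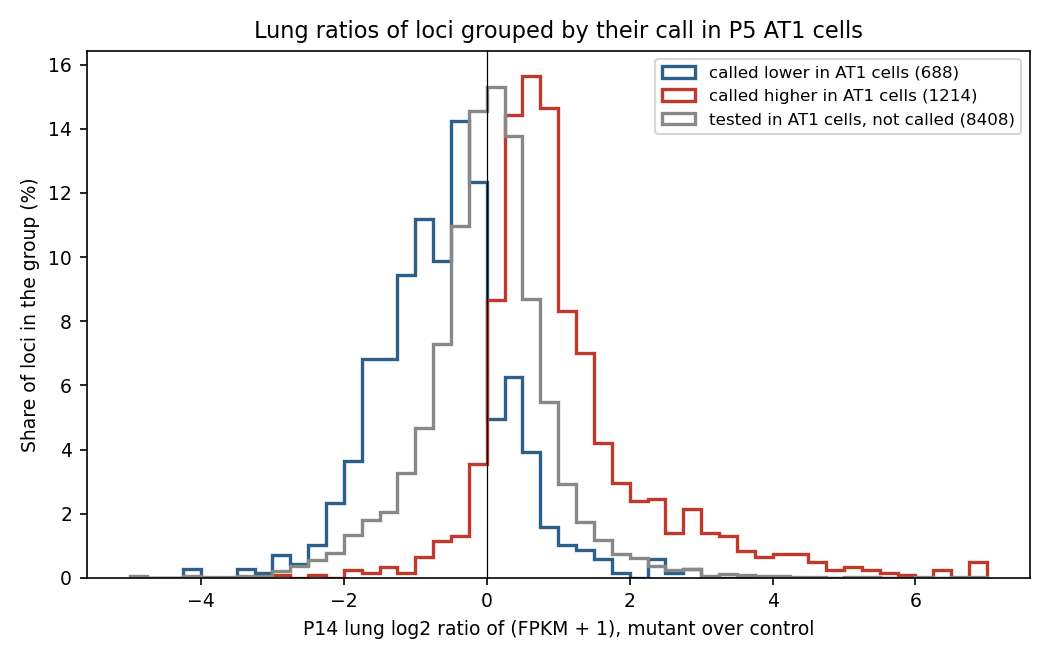
Share of loci (vertical axis, %) by their P14 lung log2 ratio, mutant over control (horizontal axis, bins of 0.25, with values past the ends in the end bins), for loci called higher (red, 1214), called lower (blue, 688) or not called (grey, 8408) in P5 AT1 cells. The red group is shifted to the right, with a median of 0.80 and a long tail, and the blue group to the left, with a median of -0.57, and both overlap the grey group.

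AT2 cells of the cross Nkx2-1;Sftpc, another set of animals in a table of its own, gave a further view of the genes with the highest lung ratios. In that comparison 3767 of 11610 genes tested rose (32.4%) and 2589 fell (22.3%). The split depended on scaling, with 6268 rising and 924 falling after rescaling to equal totals. Tff2 measured 48.0, 109.9 and 104 FPKM in mutant AT2 cells, against 0.439, 0.881 and 0.860 FPKM in control AT2 cells (log2 change 5.60 ± 0.31 SE, n = 3 each, limma adjusted p = 2.16e-05). Sprr1a and Clu rose there too, by 4.81 and 3.92 on the log2 scale (limma adjusted p = 1.18e-05 and 2.44e-05), so both rose in each of the sorted cell types. Spink4, which did not pass in AT1 cells, measured 2.39, 4.68 and 3.71 FPKM in mutant AT2 cells, against 0.400, 0.821 and 0.392 FPKM in control AT2 cells, and rose (log2 change 1.56 ± 0.22 SE, n = 3 each, limma adjusted p = 0.000863). Its level there remained far under the 1022 FPKM of mutant lung, although whole lung also holds other cells and the tables were normalised separately. Rbp2 and Agr2 rose as well (log2 changes 1.95 and 1.55, limma adjusted p = 0.00100 and 0.00493), to at most 7.27 and 4.88 FPKM in any mutant AT2 library. Tff2, Spink4, Rbp2 and Agr2 reached 1 FPKM in mutant AT2 libraries only, and so met the filter for testing through the group where they are high. With a mutant library left out these genes were not tested. Tff1 and Psca were too low in AT2 cells to be tested, at up to 2.51 and 0.622 FPKM in mutants. Saa3 did not pass in AT2 cells with all libraries (log2 change -1.10, limma adjusted p = 0.0630), and without control B it did, at 0.0490, with a negative change. Igtp measured 2.05, 2.25 and 2.45 FPKM in mutant AT2 cells, against 3.50, 2.83 and 4.13 FPKM in control AT2 cells (log2 change -0.46 ± 0.14 SE, n = 3 each, limma adjusted p = 0.0250), a fall lost without mutant A, mutant B, control A or control C at up to 0.0874. Gbp2 and Gbp7 fell too (log2 changes -0.83 and -0.82, limma adjusted p = 0.00834 and 0.00298), also with any of the mutant libraries left out (up to 0.0333 and 0.0181). With a control library left out, or after rescaling, both missed the filter on low values and were not tested, and Igtp did not pass after rescaling (limma adjusted p = 0.887). Gbp6 and Irgm2 did not pass with all libraries (limma adjusted p = 0.820 and 0.274). Of the AT2 genes described above, Sftpc and Sftpd fell in these cells (log2 changes -5.28 and -1.14, limma adjusted p = 0.000257 and 0.00477), whereas in the lung of the other cross Sftpd was not lower, and Muc1 did not pass the test (log2 change -0.21, limma adjusted p = 0.364).

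The letters of the NKX2-1 core motif, CAAGTG, with CACTTG on the other strand, stood in 7 of the 36 RefSeq windows of AT1 cell genes, and 13.6% of all windows hold them. They stood in 1 of 11 windows of the 15 highest loci and in 1 of 14 windows of the 15 lowest.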

How the data were processed

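RNA from whole lung lobes (P14) and sorted AT1 (P5) and AT2 (P8 to P9) cells was sequenced as 76-nt read pairs from poly(A) libraries, per the labels' protocols. The submitters' processing notes name TopHat2 2.0.14, Bowtie2 2.2.3, Cufflinks 2.2.1, Cuffdiff, Cuffnorm and mm10. The deposited values are FPKM per locus, 1 column a library, with lung and AT1 in the same table; the order of the steps is not given in the sources used here. The FPKM hold no counts, so no counting interval can be given. Coordinates are GRCm38, from GENCODE vM21. Whether counting used strand is not given.

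For the lungs, the log2 ratio of (FPKM + 1) was computed for loci reaching 5 FPKM in either library. AT1 and AT2 libraries were fitted separately with limma 3.58.1 (R 4.3.3) on log2(FPKM + 1), with a trend, over loci at 1 FPKM or more in at least 3 of 6 libraries, and p-values were adjusted by Benjamini-Hochberg over all loci tested (two-sided, threshold 0.05). Fold changes on this scale understate those of low genes. Summed FPKM was 625431 in mutant lung and 715760 in control lung. The labels do not say that the libraries of a group came from separate animals, so these p-values measure only the spread between libraries. AT1 libraries of the same letter deviated together (correlations of deviations from group means 0.237, 0.357 and 0.477), which pairs them. The letters come from the labels. Unless the block is named, AT1 p-values of single genes come from the fit without it, which ignores this pairing. The block changed some calls: Aqp1 and Aldh3a1 passed with it (limma adjusted p = 0.0137 and 0.0466) and not without it (0.0993 and 0.217). Ager passed in both fits (0.0189 with the block and 0.00697 without it). The code was tested on simulated data. The genes named were the 15 highest and 15 lowest kept loci, Nkx2-1 and Aqp5, and members of gene lists; members and lists were chosen with earlier results of these data known, and 5 lists (GTPases, class I antigen processing, ribosomal proteins, metallothioneins, glutathione and aldo-keto enzymes) after the values were seen. List values are counts and medians, with no test; their AT1 counts without single libraries and with the letters as a block were added after the values were seen. Antigen processing genes were at least 2-fold lower in 11 of 20 kept loci. Figures were drawn with matplotlib 3.10.9. Results that need a few withheld genes are not reported here.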

Additional observations from a re-analysis of the deposited data

Results flagged for a closer look

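Outside the loci described above, small RNA loci stood apart between the lung libraries. Mir1930 was listed at 6002 FPKM in mutant lung and at 0 in control lung, a signal in data that the comparison leaves out. In the other direction Mir5133 was listed at 0 in mutant lung and at 196051 FPKM in control lung. Of the small RNA loci, 9 reached 5 FPKM in mutant lung and were at 0 in control lung, and 15 did the reverse. FPKM of such short loci rests on a length far under that of a fragment, and its part in these values was not tested.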

How the results depend on the processing

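The lung ratios have no replicates, and their control values rest on more fragments than the mutant values, so low genes are the least certain. With a pseudocount of 5 FPKM 711 lung loci were at least 2-fold lower, and after rescaling to equal totals 1874. The median ratios of lists moved in 30 of 336 alternatives by more than the spread allowed, and the lung ratios of named genes in 41 of 256. With the letters as a replicate block, 1907 AT1 genes rose and 1359 fell; in AT2 cells, whose letters do not pair the libraries (correlations 0.112, -0.117 and 0.127), the block gave 3685 genes that rose and 2564 that fell. Leaving out a library gave 278 to 1146 AT1 genes that rose and 195 to 844 that fell. After rescaling to equal totals 6268 AT2 genes rose and 924 fell.

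Some log2 changes that did not pass a test changed sign, and the cause was not tested. Leaving out a library gave, in AT1 cells, ranges of -1.12 to 0.11 for Spink4, -0.25 to 0.0545 for Gbp4, -2.45 to 0.51 for Xist, -0.26 to 0.30 for Gbp2, -0.46 to 0.0446 for Tnfsf10 and -0.31 to 0.31 for Iigp1. In AT2 cells the ranges were -0.19 to 0.21 for Igfbp2, -0.26 to 0.46 for Gbp6 and -0.0299 to 0.21 for Ifi47. Rescaling gave -0.0438 for Gbp2 and -0.0432 for Iigp1 in AT1 cells. In AT2 cells it gave 0.57 for Igfbp2, which then passed the test (limma adjusted p = 0.0377), 0.14 for Irgm2 and 0.31 for Aqp5.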
